A study of Homo sapiens with 6 samples.

Results

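MALAT1, NEAT1, NORAD, KCNQ1OT1, TUG1, OIP5-AS1, MIR17HG and LINC-PINT are long noncoding RNAs, transcripts with roles of their own that are, as a rule, not translated. They were taken by name and make up 8 of the 63643 genes in the count table; all 8 were among the 23109 genes with enough counts to be tested. The cells were HEK293T, a human embryonic kidney line, labelled as lacking GLO1, the enzyme that starts the detoxification of methylglyoxal. MGO cells had 60 µM methylglyoxal for 4 h, and Control cells were not treated with it. The dose is that of the labels' protocol; the names of the MGO libraries carry another number, whose meaning is unknown here. Each group had 3 libraries of polyadenylated RNA, and the lack of GLO1 is shared by both groups, so no GLO1-containing cells stand beside them here. Methylglyoxal is a reactive by-product of sugar breakdown that modifies proteins and nucleic acids.

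Several of these RNAs act in the nucleus and others mainly in the cytoplasm. NEAT1 is the scaffold of paraspeckles, nuclear bodies that form on its long isoform and gather RNA-binding proteins. MALAT1 lies in nuclear speckles, bodies rich in splicing factors, and is stabilised by a triple helix at its end instead of a poly(A) tail. KCNQ1OT1 silences an imprinted chromosome domain in cis. NORAD is a cytoplasmic RNA that binds Pumilio proteins many times over. OIP5-AS1, whose relatives include the zebrafish RNA cyrano, carries a site for miR-7. TUG1 and LINC-PINT have been tied to Polycomb complexes, and MIR17HG is the precursor of the miR-17-92 cluster of microRNAs.

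Sums of counts reached 128270160 to 138680220 in the MGO libraries, against 117427883 to 157639431 in the Control libraries. The 8 RNAs took 0.0534% to 0.0698% of those counts in MGO libraries and 0.0915% to 0.0965% in Control libraries. These are shares of raw counts, without the TMM scaling factors used for the levels below. Those factors were 0.815 to 0.8579 in MGO libraries and 1.186 to 1.214 in Control libraries. The gap between the groups in these shares therefore depends on the scaling. Libraries of the same group differed by more than counting error, with a chi-square per degree of freedom between 3.77 and 56.4. All 8 markers of HEK293-type cells were detected, with summed levels of 1990 to 2220 CPM (counts scaled to library size) in MGO and 938 to 975 CPM in Control. Of these 8, KRT8, KRT18 and VIM were raised, PAX2, NEFM, LIN28B and INA were lowered, and LHX1 did not pass the threshold. Fibroblast markers, of which 3 of 5 could be tested, summed to 5.3 to 5.82 CPM in MGO and 14.3 to 15.5 CPM in Control. Blood markers, 2 of 5 tested, summed to 0.445 to 0.809 CPM in MGO and 0.175 to 0.301 CPM in Control; the part of other cells in the results was not tested. Reads were still counted for GLO1 in all 6 libraries: 101.8 ± 4.53 CPM in MGO, against 37.27 ± 0.885 CPM in Control (mean ± SD over 3 libraries, as throughout). The deleted stretch of GLO1 is not stated, so this row does not check the deletion. In bulk samples, fewer cells of a type and less RNA per cell cannot be told apart, and with no spike-in a change is relative to the other RNAs of the library.

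Sequences tie several of these RNAs to their partners, and the ones below show the sites that the later comparisons refer to. The 6 best-known mature microRNAs of the MIR17HG cluster, from RefSeq with the seed (bases 2 to 8) in capitals, fall into 4 seed groups: miR-17-5p and miR-20a-5p share one, and miR-19a-3p and miR-19b-3p share another.
miR-17-5p: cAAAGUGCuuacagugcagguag
miR-20a-5p: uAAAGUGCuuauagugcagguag
miR-18a-5p: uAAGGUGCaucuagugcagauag
miR-19a-3p: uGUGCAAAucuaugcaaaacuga
miR-19b-3p: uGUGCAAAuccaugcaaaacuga
miR-92a-3p: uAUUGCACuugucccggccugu

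OIP5-AS1 holds a long match to miR-7-5p at position 2869 of its longest transcript of 8829 bases. In the site, the capitals mark bases that pair with the microRNA: 14 bases before the gap, then the seed match GTCTTCC. OIP5-AS1 has 3 such seed matches in all, and 49.2% of 1235 transcripts within 10% of its length hold at least 1.
miR-7-5p: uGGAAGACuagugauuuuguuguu
OIP5-AS1 miR-7 site: AACAACAAAATCACcaatGTCTTCC

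NORAD holds 15 copies of the Pumilio motif TGTANATA, searched on the RNA strand, or 2.81 per kb. Of 4358 transcripts within 10% of its length, 42.9% hold the motif at least once and 0.0688% hold at least 15 copies. Among the other members, KCNQ1OT1 has 9, NEAT1 6, TUG1 2, MIR17HG 2 and OIP5-AS1 1, while none was found in MALAT1 or LINC-PINT. Below are 4 of the NORAD sites, with the motif in capitals, at transcript positions 1140, 1241, 2972 and 3593; sites 2, 11 and 14 share the bases before the motif.
NORAD site 2: ctactgTGTATATAgttgac
NORAD site 3: acatttTGTAAATAcctttt
NORAD site 11: ctactgTGTATATAgcggac
NORAD site 14: ctactgTGTATATAatggaa

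The last bases of MALAT1 before the small tRNA-like mascRNA lie at chr11:65506007-65506116 on the plus strand (GRCh38). Capitals mark runs of at least 4 T and of at least 6 A, the stretches of the kind that build its triple helix; the longest A run has 13 bases. This RNA end is made by cleavage and not by polyadenylation, and the libraries were made from polyadenylated RNA.
MALAT1 end: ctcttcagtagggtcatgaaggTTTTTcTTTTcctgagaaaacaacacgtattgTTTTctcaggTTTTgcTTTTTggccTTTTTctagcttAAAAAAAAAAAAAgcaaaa

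After methylglyoxal, LINC-PINT, MIR17HG and NEAT1 were raised, MALAT1, OIP5-AS1, TUG1 and KCNQ1OT1 were lowered, and NORAD did not pass the threshold. So 7 of the 8 were called at an adjusted p of 0.05 by edgeR's quasi-likelihood test, against 79.3% of all tested genes. The 3 raised RNAs stand against 38.8% of all genes raised, and the 4 lowered ones against 40.5% lowered. Levels of the groups did not overlap for 7 of the 8 RNAs, against 81.5% of all genes: MGO lay above Control for 3, against 39.7% of all genes, and below it for 4, against 41.8%. The share of the 8 that changed is thus near that of all genes. Of all genes, 8964 were raised and 9362 lowered, but library size alone gave 5673 raised and 12885 lowered. The median log2 fold change of the 8 was -0.27, beside -0.02 over all genes tested and -0.04 over the 4870 tested long noncoding genes, of which 33.6% were raised and 37.3% lowered.

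**Figure D1:**
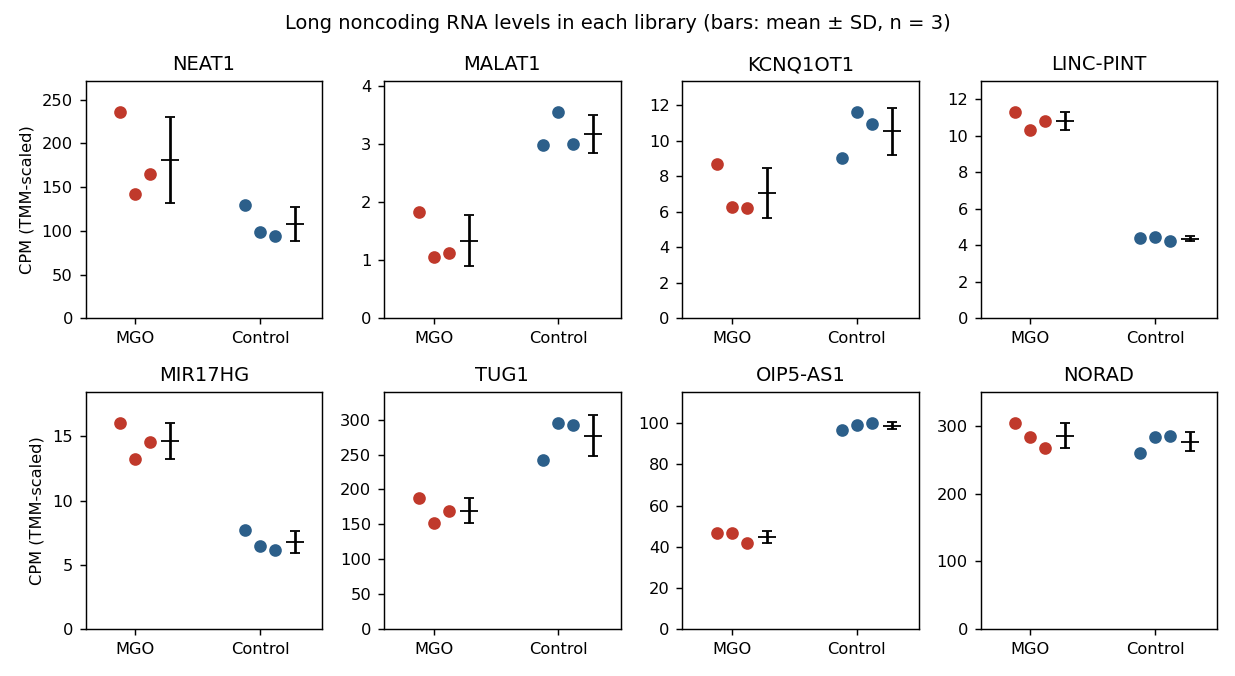
Level of each RNA in each library in CPM (vertical axis, linear from 0), with MGO left of Control and the mean ± SD (n = 3) beside the points. The groups are apart for 7 RNAs and overlap for NORAD, and MGO replicate 1 is the highest MGO library for all 8 RNAs.

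NEAT1 (chr11, 65422774 to 65445540, plus strand, 22767 bases of exon in GENCODE 29) had 236.0, 141.8 and 164.9 CPM in MGO libraries, against 129.6, 98.72 and 94.2 CPM in Control libraries. Every MGO library was above every Control library, but replicate 1 was the highest of both groups, and MGO replicate 2 lay close to Control replicate 1. The means were 180.9 ± 49.1 CPM in MGO and 107.5 ± 19.2 CPM in Control (SD, n = 3 each), a log2 fold change of 0.75 (SE 0.16, adjusted p = 0.0011 by edgeR). Scaled by library size alone, the log2 fold change was 0.23 with an adjusted p of 0.267, so the call depends on how the libraries are scaled. The row does not separate the short, polyadenylated NEAT1 isoform from the long one that scaffolds paraspeckles.

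The RNAs that encode the proteins that build paraspeckles with NEAT1 moved in both directions, and no protein was measured. Of 19 tested paraspeckle proteins and NEAT1 partners, 10 (52.6%) were raised and 8 (42.1%) lowered, with a median log2 fold change of 0.16. Of all tested genes, 38.8% were raised and 40.5% lowered. With library size alone, 3 of the list were raised and 14 lowered. RBM14, which is needed for paraspeckles to form, had 179.8 ± 5.55 CPM in MGO and 93.21 ± 0.763 CPM in Control (log2 fold change 0.95, SE 0.06). PSPC1, a core paraspeckle protein, had 109.7 ± 9.18 CPM in MGO and 58.52 ± 0.556 CPM in Control. These 2 had the largest rises of the list.
SFPQ, which binds along NEAT1, was raised by a log2 fold change of 0.66 (SE 0.07). Its partner NONO had 843.9 ± 6.3 CPM in MGO and 856.0 ± 12.4 CPM in Control, with an adjusted p of 0.754 by edgeR. SS18L1 and ZC3H6 had the lowest log2 fold changes of the list, -1.55 and -1.53.

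MALAT1 (chr11, 65497688 to 65506516, plus strand, 8829 bases of exon) lies 52147 bases after NEAT1 on the same strand and moved the other way. It had 1.836, 1.053 and 1.126 CPM in MGO libraries, from 202, 119 and 129 counts, and 2.982, 3.553 and 3.0 CPM in Control libraries, from 425, 672 and 521 counts. Every MGO library was below every Control library, with MGO replicate 1 the highest of its group. The means were 1.338 ± 0.433 CPM in MGO and 3.178 ± 0.324 CPM in Control, a log2 fold change of -1.25 (SE 0.18, adjusted p = 3.99e-05 by edgeR).
MALAT1 is known as one of the most abundant nuclear RNAs, but here it ranked 745 among 4870 tested long noncoding genes by mean CPM. In RefSeq its antisense gene TALAM1 covers 82.1% of its span, and the TALAM1 row is at 0 in all 6 libraries. The counting rule for reads in such overlaps is unknown here, so the level of MALAT1 is uncertain, and whether counting lowered it was not tested.

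Taken as ratios to MALAT1 within a library, the other RNAs were higher in MGO on average, but no ratio passed the threshold after adjustment. All the ratios share the MALAT1 counts, 119 to 672 per library, so they are not independent of each other. The log2 ratio of NEAT1 to MALAT1 counts was 7.0, 7.06 and 7.18 in MGO libraries, against 5.44, 4.79 and 4.97 in Control libraries. It was higher in 3 of 3 MGO libraries, by 2.01 on average, with an exact two-sided permutation p of 0.1, the smallest that 3 against 3 libraries allow, and 0.117 after adjustment over 7 such ratios. The log2 ratio of OIP5-AS1 to MALAT1 was 5.10 ± 0.40 in MGO and 4.96 ± 0.14 in Control, a difference of 0.14 that is within the spread between libraries (exact permutation p = 0.6). The ratios of LINC-PINT and MIR17HG to MALAT1 differed most, by 2.59 and 2.40, also at the smallest p that the exact test allows.

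Of 15 tested nuclear speckle proteins and MALAT1 partners, 5 (33.3%) were raised and 7 (46.7%) lowered (median log2 fold change -0.18). Among all tested genes 38.8% were raised and 40.5% lowered. Library size alone gave 3 raised and 10 lowered, and removing the exon-length trend 10 raised and 4 lowered. SRRM2, a scaffold of speckles, had 148.1 ± 33.6 CPM in MGO and 954.7 ± 41.2 CPM in Control, a log2 fold change of -2.69 (SE 0.13). THOC2, an mRNA export factor, was lowered by a similar amount, -2.58. The splicing factors SRSF2 and SRSF3 were raised, by 1.28 and 1.25, and SRSF2 had 879.0 ± 8.94 CPM in MGO against 361.5 ± 13.5 CPM in Control.
Of 18 tested factors of nuclear RNA 3′ end processing and decay, 10 (55.6%) were raised and 5 (27.8%) lowered, with a median of 0.23. The shares of all tested genes were 38.8% raised and 40.5% lowered. Library size alone gave 5 of the list raised and 10 lowered. METTL16, a methyltransferase that binds the MALAT1 triple helix, had 26.3 ± 2.25 CPM in MGO and 69.76 ± 1.99 CPM in Control (log2 fold change -1.41, SE 0.07). RBM7, which directs the exosome, the RNA-degrading complex, to nuclear RNAs, had 66.81 ± 4.41 CPM in MGO and 15.29 ± 0.0684 CPM in Control (log2 fold change 2.13, SE 0.07). The exosome subunit EXOSC5 was also raised, and the poly(A) polymerase PAPOLA was lowered.

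KCNQ1OT1 (chr11, 2608328 to 2699994, minus strand, 91667 bases) lies wholly within KCNQ1 on the opposite strand. It had 8.653, 6.266 and 6.212 CPM in MGO libraries and 9.044, 11.61 and 10.91 CPM in Control libraries. The groups did not overlap, but MGO replicate 1 came close to Control replicate 1. The means were 7.044 ± 1.39 CPM in MGO and 10.52 ± 1.33 CPM in Control, a log2 fold change of -0.58 (SE 0.13, adjusted p = 0.00141 by edgeR). With the exon-length trend removed it was 1.44 (adjusted p = 1.13e-08 by edgeR), a call in the opposite direction.
KCNQ1, a potassium channel gene, had 1.166 ± 0.115 CPM in MGO and 0.9012 ± 0.172 CPM in Control, with an adjusted p of 0.0556 by edgeR. Of 10 tested genes of the imprinted domain around KCNQ1OT1, 3 were raised and 3 lowered (median 0.22). That is 30% each way, against 38.8% raised and 40.5% lowered among all tested genes. Library size alone gave 3 raised and 5 lowered (median -0.31), upper-quartile scaling 6 and 3, and removing the exon-length trend 4 and 1. CDKN1C, the growth-restricting gene of this domain, had too few counts to test: 9, 8 and 9 counts in MGO libraries, against 0, 0 and 1 counts in Control libraries. TSSC4 was raised, with 70.38 ± 5.67 CPM in MGO and 25.44 ± 0.526 CPM in Control. TSPAN32 was lowered, at 0.0147 CPM in MGO and 0.2206 CPM in Control, levels so low that they rest on few counts.

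LINC-PINT (chr7, 130876809 to 131110176, minus strand, 15649 bases of exon) is a p53-linked RNA tied to Polycomb repression, and it rose most among the 8. It had 11.29, 10.30 and 10.81 CPM in MGO libraries, against 4.385, 4.467 and 4.209 CPM in Control libraries. The 3 libraries of each group lay close together and the groups were far apart. The log2 fold change was 1.31 (SE 0.08, adjusted p = 8.37e-09 by edgeR), a fold of 2.48, and every one of 17 alternative settings kept its call and direction.
Its nearest neighbours did not move with it as a block: MKLN1, the gene it overlaps by 81 bases, had 48.2 ± 4.53 CPM in MGO and 66.53 ± 6.92 CPM in Control. MKLN1-AS, an antisense RNA of that gene, was raised (log2 fold change 0.80, SE 0.09). LINC00513, which overlaps LINC-PINT on the opposite strand, was lowered by 0.66 on the log2 scale (SE 0.26, adjusted p = 0.0348 by edgeR). That value rests on few counts: 15, 23 and 18 in MGO libraries and 40, 56 and 37 in Control libraries. KLF14 had a log2 fold change of -0.05 with an adjusted p of 0.724 by edgeR. Of 21 tested Polycomb genes, 12 (57.1%) were raised and 8 (38.1%) lowered (median 0.43), against 38.8% and 40.5% of all tested genes. Library size alone gave 6 of the list raised and 9 lowered. The catalytic subunit EZH2 had 141.7 ± 18.4 CPM in MGO and 95.92 ± 4.91 CPM in Control, and PCGF1, a subunit of a Polycomb complex, was raised by 2.14 on the log2 scale. CBX7 and JARID2 had its largest falls, -2.56 and -1.99.

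MIR17HG (chr13, 91347820 to 91354579, plus strand, 3492 bases of exon) had 16.07, 13.25 and 14.56 CPM in MGO libraries and 7.725, 6.429 and 6.161 CPM in Control libraries. Each MGO library was well above each Control library. The log2 fold change was 1.11 (SE 0.10, adjusted p = 5.14e-07 by edgeR), a fold of 2.16, with the call and direction kept in all 17 alternatives. The rows of its 6 hairpins, MIR17, MIR18A, MIR19A, MIR20A, MIR19B1 and MIR92A1, were at 0 in every library, so these values are those of the host transcript and not of the mature microRNAs printed above.
MYC, a transcription factor known to activate the cluster, was raised: 29.02 ± 3.19 CPM in MGO and 13.3 ± 0.202 CPM in Control (log2 fold change 1.13, SE 0.08). Its partner MAX was raised too (0.86), and E2F1, another activator, had 106.0 ± 9.52 CPM in MGO and 82.57 ± 1.75 CPM in Control. Of the 5 tested activators, 4 were raised and MYCN was lowered (-0.33, adjusted p = 0.0147 by edgeR). Among all tested genes 38.8% were raised and 40.5% lowered. The activators have a median of 3001 exon bases, and of genes with 2 to 4 kb of exon 52.4% were raised and 26.4% lowered. Library size alone gave 2 activators raised and 3 lowered, and removing the exon-length trend 3 raised and 2 lowered. GPC5, the next gene along the chromosome, had a log2 fold change of -0.44.

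Of 12 tested reported targets of the miR-17-92 cluster, 7 (58.3%) were lowered and 3 (25%) raised, with a median of -0.49. Among all tested genes 40.5% were lowered and 38.8% raised. Among genes with 4 to 8 kb of exon, which holds the list's median length of 6167 bases, 49.3% were lowered and 33% raised. With the exon-length trend removed the median of the targets was 0.11, with 5 lowered and 6 raised. RBL2, a retinoblastoma-family protein, had 15.69 ± 1.44 CPM in MGO and 95.52 ± 2.78 CPM in Control, a log2 fold change of -2.61 (SE 0.08), and TP53INP1 was lowered by 1.41 on the log2 scale. The targets raised most were SOCS3, a cytokine-signalling inhibitor, by 2.38, and CDKN1A, which encodes the cell cycle inhibitor p21, at 342.6 ± 22.2 CPM in MGO and 86.87 ± 4.24 CPM in Control.
The list of factors that make and use microRNAs had 18 tested genes, of which 14 (77.8%) were lowered at the RNA level and 4 raised, with a median of -1.59. Of all tested genes 40.5% were lowered, and of those with 8 to 16 kb of exon 73.3%. DDX17, a helicase of the nuclear processing complex, had 104.2 ± 16.4 CPM in MGO and 965.2 ± 32.3 CPM in Control (log2 fold change -3.21, SE 0.10), and DROSHA, the nuclear microRNA nuclease, had 29.56 ± 3.33 CPM in MGO and 141.5 ± 1.5 CPM in Control. AGO1, which binds mature microRNAs, had 16.54 ± 0.72 CPM in MGO and 123.9 ± 9.23 CPM in Control. The 4 raised genes were RAN, TARBP2, HNRNPA1 and DDX5. These genes are long, with a median of 8237.5 exon bases, and with the trend on exon length removed 10 were lowered and 4 raised with a median of -0.51.

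TUG1 (chr22, 30969245 to 30979395, plus strand, 10151 bases of exon) had 188.4, 152.5 and 168.4 CPM in MGO libraries, against 242.9, 295.8 and 292.3 CPM in Control libraries. No MGO library reached a Control library. The means were 169.8 ± 18 CPM in MGO and 277.0 ± 29.6 CPM in Control, a log2 fold change of -0.71 (SE 0.09, adjusted p = 1.63e-05 by edgeR). With the exon-length trend removed it was 0.28 (adjusted p = 0.00247 by edgeR), a call in the opposite direction. RefSeq classes TUG1 as protein coding. MORC2, which lies 946 bases away on the opposite strand, was lowered by 1.45 on the log2 scale, while SMTN on the other side had a log2 fold change of -0.12 with an adjusted p of 0.113 by edgeR.

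OIP5-AS1 (chr15, 41283990 to 41309737, plus strand, 12673 bases of exon) had 46.67, 46.56 and 41.57 CPM in MGO libraries and 96.97, 99.34 and 100.3 CPM in Control libraries. The groups were far apart and each was tight. The log2 fold change was -1.14 (SE 0.07, adjusted p = 6.38e-09 by edgeR), a fold of 0.454. With the exon-length trend removed it was 0.12 (adjusted p = 0.0907 by edgeR), and with the trend on median transcript length removed, a setting added after seeing the data, it was -2.01. OIP5, the gene it overlaps on the other strand, was raised, with 2.468 ± 0.204 CPM in MGO and 1.397 ± 0.0813 CPM in Control. ELAVL1, an RNA-stabilising protein that binds OIP5-AS1, had 169.7 ± 8.44 CPM in MGO and 193.1 ± 1.85 CPM in Control (log2 fold change -0.19, adjusted p = 0.0141 by edgeR).

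The promoters of the lowered RNAs TUG1 and OIP5-AS1, from RefSeq (GRCh38.p14, 250 bases before to 50 after the start, plus strand), each hold the E-box CACGTG, in capitals, a motif bound by MYC and related factors. They lie at chr22:30969015-30969314 and chr15:41283740-41284039.
TUG1 promoter: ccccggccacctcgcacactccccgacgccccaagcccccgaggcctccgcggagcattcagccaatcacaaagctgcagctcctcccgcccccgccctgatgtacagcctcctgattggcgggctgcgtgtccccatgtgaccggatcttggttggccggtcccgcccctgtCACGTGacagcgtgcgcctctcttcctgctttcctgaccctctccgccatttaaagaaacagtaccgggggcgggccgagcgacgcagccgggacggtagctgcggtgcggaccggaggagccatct
OIP5-AS1 promoter: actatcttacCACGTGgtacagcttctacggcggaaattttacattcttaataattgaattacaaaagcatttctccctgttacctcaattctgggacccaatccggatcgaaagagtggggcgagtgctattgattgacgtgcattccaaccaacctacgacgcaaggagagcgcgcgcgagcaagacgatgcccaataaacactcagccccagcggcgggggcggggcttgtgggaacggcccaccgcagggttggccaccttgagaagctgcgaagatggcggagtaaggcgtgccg
Of 35116 promoters searched on both strands, 7.26% hold CACGTG, and the NORAD promoter and 1 of 4 LINC-PINT promoters hold it too. The promoters of MALAT1 and MIR17HG held none of CACGTG, TGACGTCA (1.85% of promoters), TGANTCA (7.71%) or TTTGGCGC (0.652%), which says nothing about the factors. Promoters of NEAT1 and KCNQ1OT1 were not among those matched.

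NORAD (chr20, 36045622 to 36050960, minus strand, 5339 bases) had 304.7, 283.8 and 267.7 CPM in MGO libraries, against 260.3, 284.1 and 285.0 CPM in Control libraries. The groups overlapped throughout. The log2 fold change was 0.05 (SE 0.07), with an adjusted p of 0.552 by edgeR, but library size alone gave -0.48 (adjusted p = 9.33e-05) and upper-quartile scaling 0.22 (adjusted p = 0.00897), so its direction is set by the scaling.
PUM2, a Pumilio protein that NORAD binds, had 57.35 ± 7.93 CPM in MGO and 125.6 ± 4.83 CPM in Control, a log2 fold change of -1.13 (SE 0.09). Of 10 tested NORAD partners, 3 (30%) were raised and 5 (50%) lowered, against 38.8% and 40.5% of all tested genes. For these partners library size alone gave 3 and 7, upper-quartile scaling 4 and 4, and removing the exon-length trend 5 and 5. SMC1A, a subunit of the cohesin ring, had 151.8 ± 16.6 CPM in MGO and 1103 ± 59.5 CPM in Control (log2 fold change -2.86, SE 0.09), and ALYREF, an mRNA export adaptor, was raised by 1.61.

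Per length of exon, the order of the 8 in MGO was NORAD, TUG1, NEAT1, MIR17HG, OIP5-AS1, LINC-PINT, MALAT1 and KCNQ1OT1, with 53.5, 16.7, 7.95, 4.19, 3.55, 0.690, 0.152 and 0.0768 CPM per kb. In Control the order was NORAD, TUG1, OIP5-AS1, NEAT1, MIR17HG, MALAT1, LINC-PINT and KCNQ1OT1, with 51.8, 27.3, 7.80, 4.72, 1.94, 0.360, 0.278 and 0.115 CPM per kb. OIP5-AS1 was below NEAT1 and MIR17HG in MGO and above both in Control, and MALAT1 was below LINC-PINT in MGO and above it in Control. The change of order of MALAT1 and LINC-PINT depends on the length used. By mean CPM, MALAT1 was below LINC-PINT in MGO (1.338 and 10.8) and in Control (3.178 and 4.354), and its level is uncertain, as said above. The longest LINC-PINT transcript has 6411 bases, fewer than its merged exons. Within each group the 3 libraries of an RNA did not overlap those of the next in its order, and MIR17HG and OIP5-AS1 came close in MGO (lowest MIR17HG library 3.79, highest OIP5-AS1 library 3.68 CPM per kb). By mean CPM, NORAD and TUG1 ranked 5 and 6 among the 4870 long noncoding genes, NEAT1 11 and OIP5-AS1 20.

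Across the whole table, the median log2 fold change was 0.37 below 1 kb of exon, 0.53 at 1 to 2 kb and 0.38 at 2 to 4 kb. It was lower in each longer bin, so the 8 RNAs are set beside genes of their own exon length here. Exon length merges all exons, and the median transcript has 1332.5 bases for LINC-PINT and 1481.5 for MIR17HG. With the trend on median transcript length removed, their log2 fold changes were 0.55 and 0.44, so how far they stand out depends on the length used. Among all genes with 8 to 16 kb of exon the median log2 fold change was -1.03, with 14% raised and 73.3% lowered. MALAT1, TUG1 and OIP5-AS1 lay within the quartiles of that bin, while LINC-PINT, in the same bin, was on the other side of 0. Above 16 kb the median was -1.45 over 400 genes, with KCNQ1OT1 above it and NEAT1 further above. Among long noncoding genes alone the trend was weaker, with medians of -0.39 over 82 genes of 8 to 16 kb and -0.28 over 35 longer ones.

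**Figure D2:**
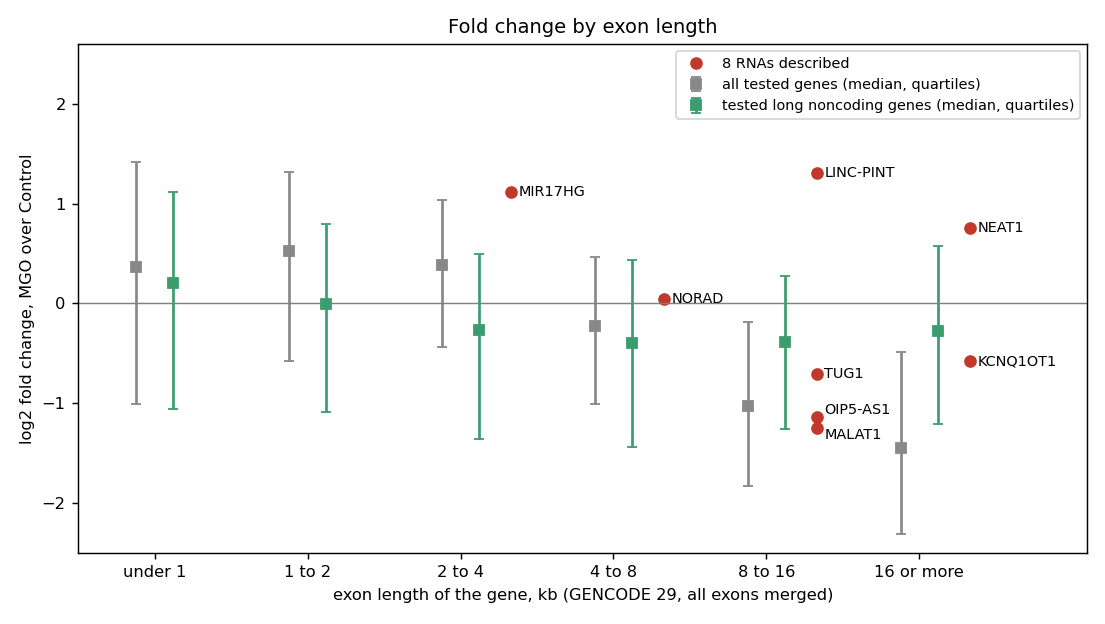
Log2 fold change, MGO over Control (vertical axis), of the 8 RNAs (labelled points) in their exon-length bin in kb (horizontal axis), beside the median and quartiles of all tested genes and of tested long noncoding genes. LINC-PINT, NEAT1 and MIR17HG lie above the upper quartile of all genes in their exon-length bin and above that of long noncoding genes in it. Exon length merges all exons of a gene, and the median transcripts of these RNAs are shorter (1332.5, 3147 and 1481.5 bases).

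With a trend on exon length removed in each library, 5 of the 8 were raised and 1 lowered. Of the 21758 genes tested in that setting, 7119 were raised and 10062 lowered. The signs of KCNQ1OT1, TUG1 and OIP5-AS1 were then opposite to the reported ones, with the values given above. MALAT1 stayed lowered, and LINC-PINT, MIR17HG and NEAT1 stayed raised. The length of KCNQ1OT1 lies far out on the trend, and why long RNAs are lower in MGO was not tested.

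**Figure D3:**
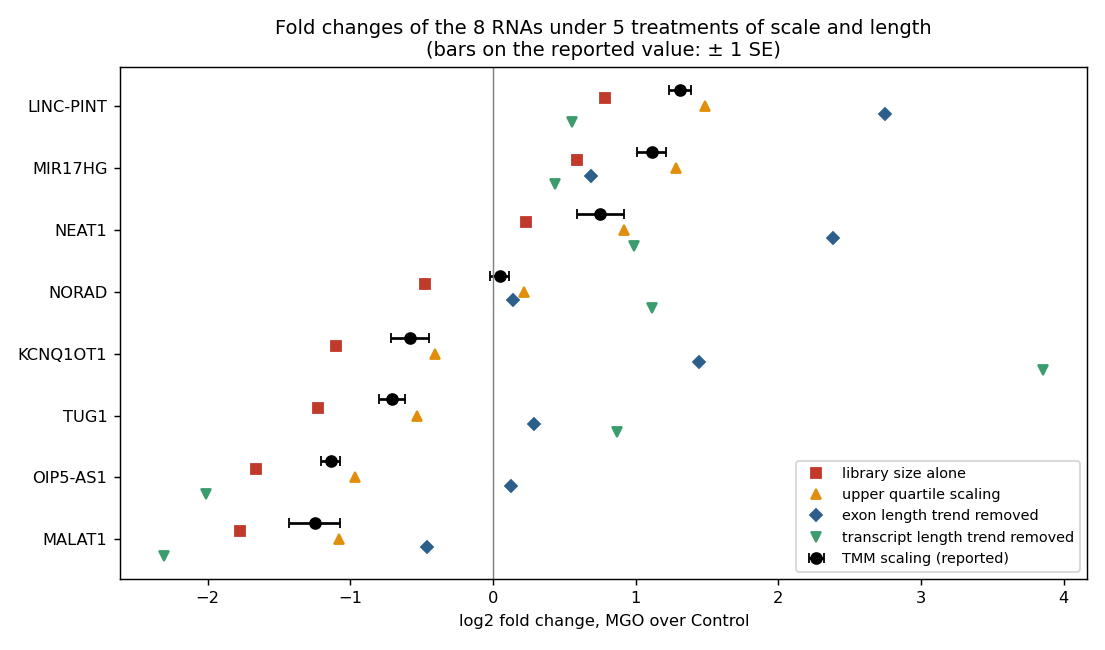
Log2 fold change, MGO over Control (horizontal axis), of each RNA under the reported scaling (black, ± 1 SE) and 4 other treatments of scale and length. LINC-PINT and MIR17HG stay above 0 and MALAT1 below 0 throughout, KCNQ1OT1 and TUG1 cross 0 when either length trend is removed, and OIP5-AS1 crosses it with the exon-length trend removed but not with the transcript-length trend removed.

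The genes most like each RNA over the 6 libraries were named by the smallest root mean square difference of log2 CPM, each centred on its own mean, among 13391 genes. NORAD was nearest SMIM13 (0.02), TUG1 nearest MAST4 (0.0233) and KCNQ1OT1 nearest ZKSCAN8 (0.0257). OIP5-AS1 was nearest S100PBP (0.0298), MIR17HG nearest HOXB-AS1 (0.041), and LINC-PINT nearest CD55 (0.0419), followed by SRSF2 (0.0457). MALAT1 and NEAT1, whose replicates spread most, had the least close neighbours, RIMS2 (0.0914) and EGLN2 (0.0994).

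Other known long noncoding RNAs moved both ways as well: of 39 tested, 19 (48.7%) were raised and 12 (30.8%) lowered, with a median of 0.13. Among all tested genes 38.8% were raised and 40.5% lowered, and among tested long noncoding genes 33.6% and 37.3%. Library size alone gave 12 of the 39 raised and 21 lowered. LINC00342 had 3.224 ± 0.83 CPM in MGO and 45.24 ± 2.89 CPM in Control, a log2 fold change of -3.81 (SE 0.14). FTX, an RNA of the X-inactivation centre, was lowered by 1.70 on the log2 scale. RMRP and RN7SL1, small noncoding RNAs of RNA-processing and protein-targeting particles, were raised by 2.30 and 2.12, but with wide spread, RMRP having 41.7 ± 35.3 CPM in MGO and 8.422 ± 3.86 CPM in Control, and with overlapping groups for RMRP.

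**Figure D4:**
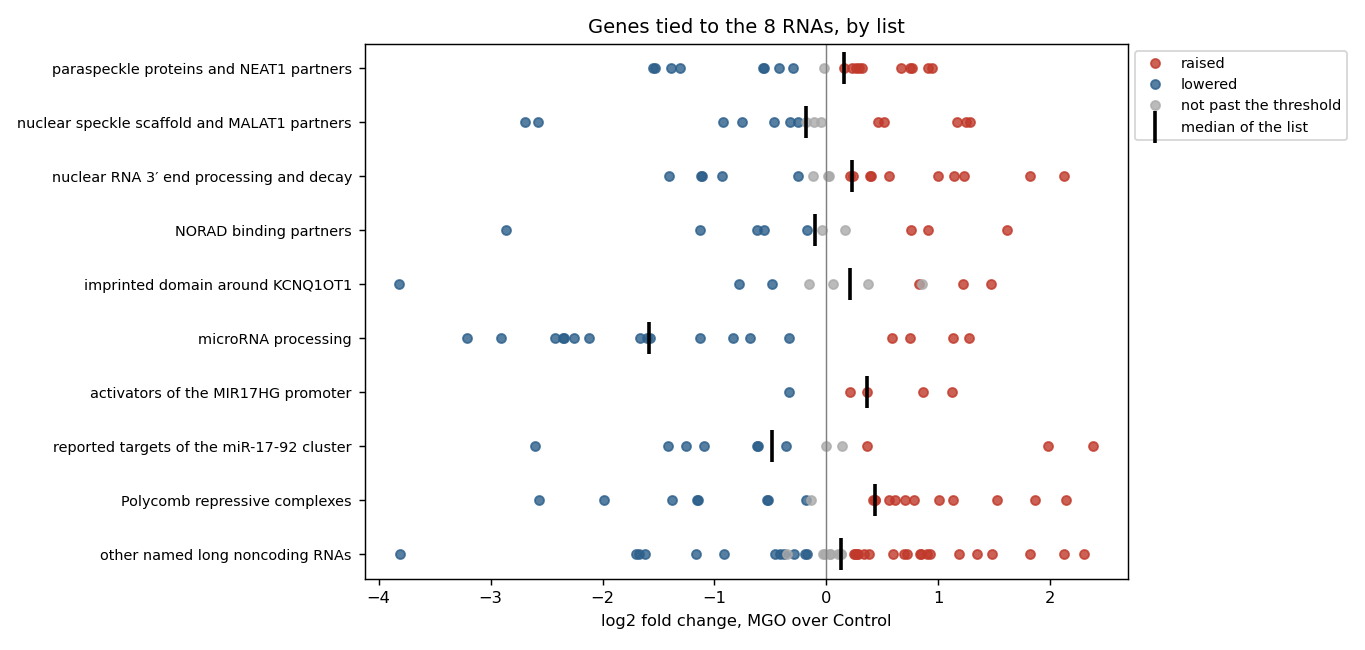
Log2 fold change, MGO over Control (horizontal axis), of each tested gene in 10 lists tied to the 8 RNAs (rows), coloured by call, with the list's median as a bar. The microRNA-processing list lies mostly left of 0, and the other lists have points on both sides.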

How the data were processed

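The deposited table holds raw read counts per gene, made by the authors with featureCounts 2.0.6 after trimming with Trim Galore 0.6.10 and alignment to hg38 with STAR 2.7.0a, per the submitters' processing notes. Neither the annotation nor the strand setting is named there. Of 63643 rows, 21558 were 0 throughout, and 23109 passed edgeR's filterByExpr. Counts were scaled by TMM and tested across all genes with edgeR 4.0.16 (R 4.3.3, quasi-likelihood test, Benjamini-Hochberg threshold 0.05). CPM are TMM-scaled. The test was also run on simulated data in which only a small part of the genes changed, with no length trend. That run does not check the scaling for data in which most genes are called. Alternatives used DESeq2 1.42.0, limma 3.58.1, other scalings and filters, each library left out, and length trends. Lengths and coordinates are from GENCODE 29 (GRCh38), sequences from RefSeq (GRCh38.p14) and GENCODE 29. Named genes are the 8 RNAs, the 2 largest rises and falls of each list, nearest and overlapping genes, the 2 most alike genes, and known partners; DROSHA, DDX5 and others are named as members of a list after their values were seen, and some genes the rule names are not reported here. The 8 RNAs and the lists were chosen with earlier results of these data known. Nothing in the labels says that replicates were separate cultures, so p-values measure only the spread between these libraries.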

Additional observations from a re-analysis of the deposited data

How the results depend on the processing

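In every one of 17 alternative settings MALAT1 kept its fall (log2 fold change -2.31 to -0.46) and MIR17HG (0.44 to 1.28) and LINC-PINT (0.55 to 2.75) their rise, each past the threshold. For MALAT1 the largest adjusted p was 0.0243 by edgeR, with the exon-length trend removed. None of the settings changes how reads were counted or which RNA was selected, so the level of MALAT1 stays uncertain. Library size alone moved the median of all genes by -0.53, gave 5673 raised genes against 8964, took NEAT1 to 0.23 and turned NORAD to -0.48; upper-quartile scaling took NORAD to 0.22. Removing the exon-length trend gave 5 RNAs raised and 1 lowered and turned KCNQ1OT1 to 1.44, TUG1 to 0.28 and OIP5-AS1 to 0.12. Among the 21758 genes tested in that setting, 7119 were raised and 10062 lowered. A version by median transcript length, added after seeing the data, gave 6 raised and 2 lowered. KCNQ1OT1 was then at 3.86, TUG1 at 0.87, NORAD at 1.12 and OIP5-AS1, unlike under exon length, at -2.01. This version called 7126 of 21758 genes raised and 9531 lowered. In all of these the cause was not tested. Leaving out each library in turn kept 3 raised and 4 lowered; over these settings NEAT1 ranged between 0.52 and 0.90 and KCNQ1OT1 between -0.75 and -0.50. The log2 ratio of OIP5-AS1 to MALAT1 turned to -0.0329 without MGO replicate 2, the lowest of its leave-one-out values, whose highest was 0.364. With the replicate number as a block, 3 RNAs were raised and 4 lowered (8869 and 9299 genes in all). For each library, deviations of log CPM from its group mean were taken over all tested genes. Between same-numbered libraries these deviations correlated at 0.0407, 0.0184 and 0.0127, so the numbers were not taken to pair the libraries.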
